A study of Caenorhabditis elegans with 18 samples.

Results

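The left arm of chromosome III of Caenorhabditis elegans was taken as the 500-bp windows of the deposited table that start from position 500001 onward and end by 3722000, which is the arm of high meiotic recombination without the outer 500 kb of the chromosome. This choice of bounds is by position and used no measured value, although it was made with earlier results of these data known. It gave 6444 of the 200538 windows of the table, which hold 322 whole bins of 10 kb among 10029 in the genome, and 32 whole segments of 100 kb. Chromatin immunoprecipitation with an antibody to LEM-2, with sequencing of the recovered DNA (ChIP-seq), was done on early embryos collected before the bean stage at 20 °C and fixed with 2% formalin for 30 min. The strains were the wild type N2 (Bristol), met-2(n4256) III and set-25(n5021) III, each with 3 immunoprecipitated (IP) and 3 input libraries that the labels call independent biological replicates. Growth after synchronization at the L1 stage took 60 to 65 h, depending on the strain, and no other allele or treatment is named for any group.

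LEM-2 belongs to the LEM-domain family and sits in the membrane that faces the chromatin inside the nucleus, so DNA recovered with it lies near the nuclear envelope. The distal arms of worm autosomes are rich in repeats and in histone H3 methylated at lysine 9 (H3K9), and in embryos they are known to lie against the envelope, whereas the gene-dense centres lie further inside. MET-2, related to mammalian SETDB1, deposits the mono- and dimethyl marks on H3K9, and SET-25 deposits the trimethyl mark. The comparison of strains addresses where LEM-2 contact lies when 1 of these enzymes is mutated.

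Enrichment is given as log2 of the IP value minus the mean log2 of the 3 inputs of the same strain, so that 0 stands for an equal scaled read number in both. The 3 enrichments of a strain share 1 input mean, and their SD (n = 3 throughout) therefore leaves out the spread of the inputs. Libraries had 8.73 to 64.5 M reads in the table, and the arm itself held between 1016 reads per bin in the shallowest library, met-2 IP b, and 6561 in N2 IP a. The arm took 3.17 to 3.24% of the reads of the 9 inputs. It took 5.47, 5.01 and 4.99% of the reads of the N2 IP libraries, 3.52, 3.75 and 3.91% in met-2, and 5.0, 4.16 and 3.95% in set-25. All libraries had been scaled to the same total, so a lower LEM-2 signal over the whole genome and a shift of signal between regions cannot be told apart.

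Columns of the table name the strain and a letter from a to c. Intervals that were empty in some inputs, with at most 5% of the median window, and well covered in the others gave a check of the strain labels. Intervals of a single window were kept only inside the arm. The 3 intervals that were kept lay outside the arm. The interval III:13287501-13289000 was empty, with at most 4 input reads, in all 3 columns labelled set-25. The interval III:8376501-8377500 held at most 3 input reads in the 3 met-2 columns and also in columns b and c labelled set-25, against at least 358 in the other inputs. Another interval, V:1646001-1647500, was empty in N2 column a and again in columns b and c labelled set-25. Columns b and c labelled set-25 thus lacked the interval that met-2 lacks, and column a did not. Results for set-25 are given for column a and for columns b and c apart as well as together. Enrichment of column a still uses the mean of all 3 inputs with that label, unless columns b and c were left out with their inputs.

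In wild-type embryos the arm was enriched for LEM-2 along most of its length. The mean over its windows was 0.62, 0.49 and 0.45 in the 3 N2 libraries (0.52 ± 0.09, SD, n = 3). As a geometric mean over windows this is an IP to input ratio of 1.43. Ratios given below are of the same kind and differ from those of the read shares. The centre of the same chromosome had -1.14, -0.77 and -0.79 (-0.90 ± 0.21). The arm mean lay above the centre mean by 1.76, 1.25 and 1.24 in the 3 N2 libraries, although single bins of both regions overlapped. Of the 322 bins, 237 were enriched in N2 at an adjusted p under 0.05 (limma with Benjamini-Hochberg adjustment over all bins), which is more than the 32.3% of all bins of the genome that passed in that direction. Depletion passed in 33 bins of the arm, against 53.5% of all bins. After each library was centred on its median over all bins, 276 bins of the arm were enriched, against 43.2% of all bins. Median enrichment of the arm's bins was 0.59, and that of all bins was -0.25. At the scale of single windows, 4617 of 6444 (71.6%) lay above 0 in all 3 N2 libraries, and the share over all windows is not given here.

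**Figure D1:**
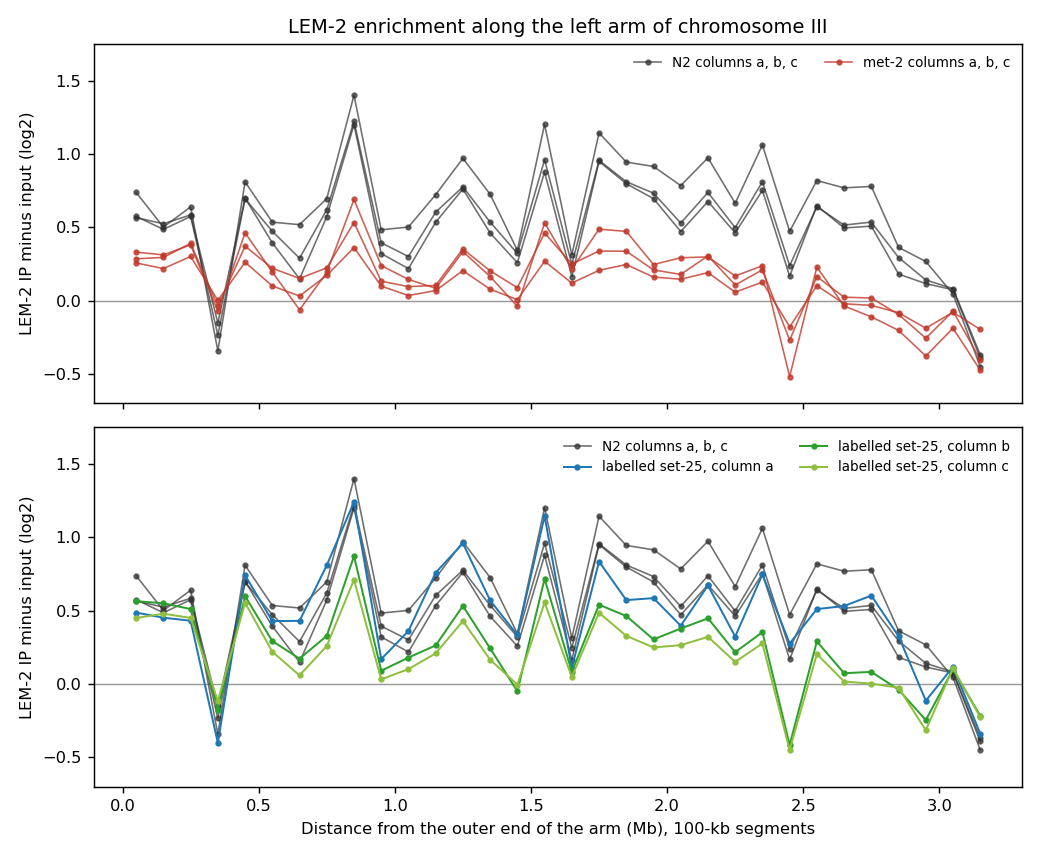
LEM-2 enrichment (log2 IP minus mean strain input) of the 32 segments of 100 kb, plotted against distance from the outer end of the arm in Mb; each line is 1 library, with met-2 in the upper panel and the columns labelled set-25 in the lower one, both over the same N2 lines. The 3 met-2 lines largely keep the shape of the N2 lines at a smaller amplitude, mostly below them. Column a labelled set-25 lies within the N2 range in 13 of the 32 segments, below it in 15 and above it in 4. Columns b and c lie below the N2 range in 27 and 29. Shares of all segments are not given for these counts.

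The N2 signal was uneven, with peaks and gaps at the same places in all 3 libraries, as the profile of 100-kb segments shows. Enriched bins formed 28 uninterrupted runs with a median length of 60 kb, which together covered 2370 kb. The longest run extended over 310 kb from 2160001 to 2470000, with a mean of 0.87 ± 0.09. The most enriched segment lay between 1.3 and 1.4 Mb, with 1.40, 1.22 and 1.20 in N2, and it was the highest of the 32 in all 9 IP libraries. It sits inside a run of 180 kb from 1230001 to 1410000 that averaged 1.17 ± 0.10 in N2.

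Depleted bins of N2 formed 13 runs, of which 10 were single bins. A gap of 80 kb from 830001 to 910000 had -0.64, -0.52 and -0.43 in the 3 N2 libraries. At the inner border, a run of 120 kb from 3600001 to 3720000 had -0.59, -0.49 and -0.49, and the segment between 3.6 and 3.7 Mb was the lowest of the arm in every N2 library. In all 3 N2 libraries 30 of the 32 segments lay above 0, and the last of them ended at 3.6 Mb. By the rule for named bins, the highest bin in N2 started at 1270001, with 1.59, 1.503 and 1.54 (adjusted p = 1.35e-08, limma). The lowest started at 3700001, with -1.48, -1.29 and -1.09. The 5 next highest were the bins from 1360001, 2070001, 2440001, 2220001 and 2600001, at means of 1.46 down to 1.29, and the 5 next lowest were those from 1920001, 880001, 3620001, 3500001 and 3390001, at -1.09 up to -0.59.

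In met-2 embryos most of the arm carried less LEM-2 signal than in N2, and the arm stayed slightly above its input. Its mean was 0.09, 0.15 and 0.14 in the 3 met-2 libraries (0.13 ± 0.03, a ratio of 1.09), all below the lowest N2 library. The difference of the means was -0.39, and it was -0.34 without N2 column a, the highest of the N2 libraries. The arm exceeded the centre of the chromosome by 0.28, 0.43 and 0.52 in met-2, against 1.24 to 1.76 in N2. The centre had -0.18, -0.29 and -0.39 in met-2, above all 3 N2 values, so both regions lay nearer to 0 than in N2.

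Of the 322 bins of the arm, 216 fell in met-2 against N2 at an adjusted p under 0.05 (limma), where 22.3% of all bins of the genome fell. Only 8 bins of the arm rose, against 45.6% of all bins, and this count was 2 without met-2 column a (37.1% of all bins) and 13 without column c (44.5%). The median difference of the arm's bins was -0.43, with quartiles of -0.64 and -0.21, whereas that of all bins was 0.20. The difference was below 0 in 288 of the 322 bins, against 38.9% of all bins. Without N2 column a, 173 bins of the arm fell, with 16.8% of all bins doing so. After median-centring, 275 fell, against 34.2% of all bins, and the difference of the arm means was -0.60. Rises then made up 0.311% of the bins of the arm and 29.8% of all bins.

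**Figure D2:**
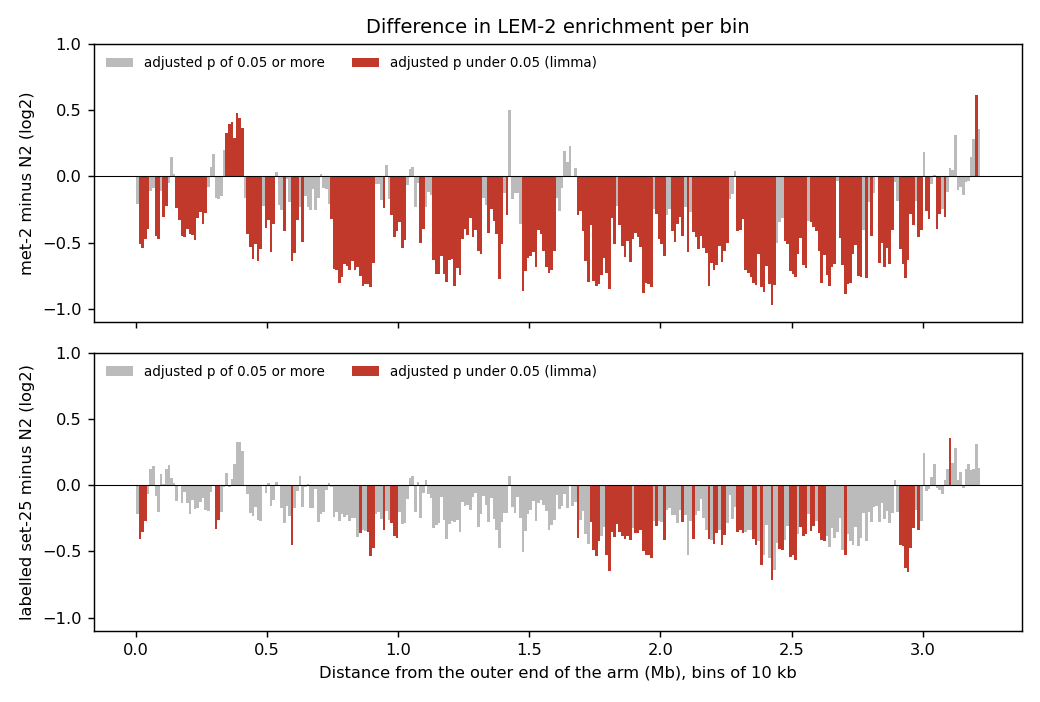
Difference in LEM-2 enrichment (log2) from N2 for each of the 322 bins of 10 kb, for met-2 above and for the 3 libraries labelled set-25 below, against distance from the outer end of the arm in Mb; red bars passed an adjusted p of 0.05 in limma. Called falls of met-2 occur along most of the arm, apart from a block of rises at the gap between 830001 and 910000 and from the inner border beyond 3600001, where 1 bin rose, and the called falls of set-25 are sparser.

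The order of high and low places along the arm was largely kept in met-2, at a smaller amplitude. Every met-2 library was below every N2 library in 28 of the 32 segments, where this held for 31.9% of all segments of the genome. They lay above in 1 segment and overlapped with N2 in the other 3. The highest segment, at 1.3 to 1.4 Mb, had 0.36, 0.53 and 0.69 in met-2, and its difference from N2 was -0.75. Over the 322 bins the SD of enrichment was 0.58, 0.49 and 0.49 in the N2 libraries and 0.21, 0.31 and 0.43 in the met-2 libraries. As a description across bins that share libraries and inputs, the Pearson correlation between a N2 and a met-2 library was 0.77 to 0.85, against 0.95 to 0.98 between N2 libraries.

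Enriched bins of met-2 were nearly a subset of those of N2. On their own, 139 bins of the arm were enriched in met-2 (22.4% of all bins were) and 39 were depleted (30.0% of all bins). Without met-2 column c, which had the widest spread, 73 were enriched (11.4% of all bins in that fit) and 13 depleted (6.90%). Of the 139, 138 were also enriched in N2, which is 99.3% of the met-2 list and 58.2% of the N2 list. In the arm as a whole, 73.6% of bins were enriched in N2. Another 3 bins were enriched in N2 and depleted in met-2, and the share of all bins is not given for this count. The enriched bins of met-2 made 46 runs with a median of 20 kb, and the longest extended over 150 kb from 1260001 to 1410000, where met-2 averaged 0.55 ± 0.17. The 310-kb run of N2 from 2160001 to 2470000 averaged 0.32 ± 0.11 in met-2.

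The segments that departed from the common pattern were few. The gap at 0.8 to 0.9 Mb had -0.34, -0.23 and -0.15 in N2 and 0.00, -0.04 and -0.07 in met-2, and was the single segment with all met-2 libraries above all N2 libraries. The segment at 2.1 to 2.2 Mb had 0.31, 0.25 and 0.16 in N2 and 0.12, 0.25 and 0.22 in met-2, so that the strains overlapped. At 1.1 to 1.2 Mb and at 3.6 to 3.7 Mb the libraries of the strains overlapped too.

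Split at its midpoint, the arm retained less signal in met-2 on the inner side, next to the centre, than on the outer side. The outer side averaged 0.56 ± 0.08 in N2 and 0.21 ± 0.05 in met-2, and the inner side 0.48 ± 0.10 and 0.04 ± 0.01. Outer minus inner was 0.06, 0.09 and 0.09 in the N2 libraries and 0.12, 0.18 and 0.21 in the met-2 libraries. N2 and met-2 did not overlap in this measure. Columns a to c labelled set-25 had 0.19, 0.22 and 0.20, above all N2 values and overlapping met-2. The measure was not tested. The last segment above 0 ended at 3.6 Mb in each N2 library and at 3.1, 3.3 and 3.1 Mb in the met-2 libraries.

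The largest fall of the arm was in the bin from 2920001 to 2930000. Enrichment there was 0.79, 0.52 and 0.50 in N2 and -0.24, -0.20 and -0.68 in met-2, a difference of -0.97 (SE 0.27, adjusted p = 0.00453, limma). Every N2 library was above its input and every met-2 library below, although depletion in met-2 itself did not pass (adjusted p = 0.107, limma). In reads scaled to a common library size (RPM), the N2 IP libraries had 149, 130 and 130 in this bin and the met-2 IP libraries 72.4, 77.6 and 57.9. The inputs of the strains overlapped, at 80.2 to 92.6 in N2 and 76.8 to 95.4 in met-2. Of the 20 windows of the bin, 16 showed met-2 below N2 in every pair of libraries, and the differences of the 20 windows ran from -1.51 to -0.35. The bin belongs to a segment, at 2.9 to 3.0 Mb, that was low in met-2 as a whole, with -0.18, -0.27 and -0.52 against 0.47, 0.24 and 0.17 in N2.

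**Figure D3:**
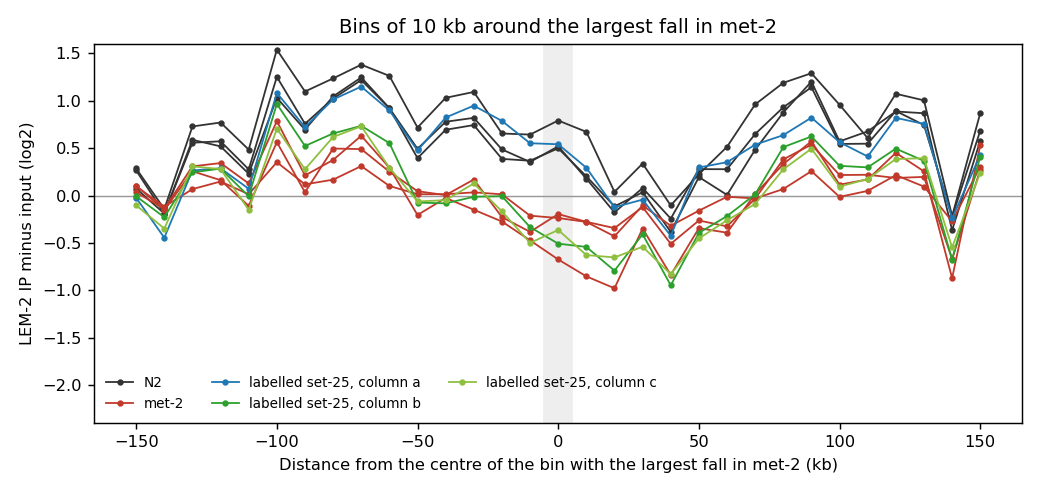
LEM-2 enrichment (log2 IP minus mean strain input) of the bins of 10 kb around the bin with the largest fall in met-2, which is shaded, against distance from its centre in kb; each line is 1 library. In the shaded bin the N2 libraries sit between 0.50 and 0.79, column a labelled set-25 at 0.54, and met-2 together with columns b and c between -0.68 and -0.20.

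The other named falls in met-2 were the bins from 3200001, 2430001, 1970001, 2300001 and 1390001, with differences of -0.89 to -0.83 and adjusted p of 0.000146 to 0.00249 (limma). The bin from 2300001 had 0.79, 0.67 and 0.75 in N2 and -0.08, -0.17 and -0.08 in met-2 (difference -0.85, SE 0.12), again on opposite sides of 0. Depletion in met-2 itself did not pass there either (adjusted p = 0.265, limma). The bin from 1390001 remained above 0, with 1.31, 1.11 and 1.12 in N2 and 0.18, 0.27 and 0.60 in met-2. All 5 had their met-2 libraries below those of N2, as the rule required.

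Only 2 bins met the rule for rises, and both were among the lowest of the arm in N2. The bin from 3700001 had -1.48, -1.29 and -1.09 in N2 and -0.42, -0.54 and -1.04 in met-2 (difference 0.62, SE 0.20, adjusted p = 0.0104, limma). The bin from 880001, inside the gap at 0.8 to 0.9 Mb, had -1.06, -0.95 and -0.69 in N2 and -0.17, -0.45 and -0.65 in met-2 (difference 0.48, adjusted p = 0.0147). In both bins met-2 column c lay close to the nearest N2 library and column a furthest from it. Neither call held without column a, and that of the bin from 3700001 did not hold without column b. After median-centring, the difference at 880001 was 0.27 and no longer passed. Both bins remained below their input in all 3 met-2 libraries.

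The 3 libraries labelled set-25 differed among themselves more than those of either other strain. The arm mean was 0.46 in column a, 0.25 in column b and 0.18 in column c (0.30 ± 0.15, a ratio of 1.23). Column a lay within the N2 range of 0.45 to 0.62, and columns b and c lay between N2 and met-2. The difference from N2 was -0.22 over the 3 libraries, -0.06 for column a and -0.31 for columns b and c. With only the input of column a subtracted, the arm mean of column a was 0.48 and its difference from N2 was -0.042. Set against the N2 column of the same letter, the differences were -0.16, -0.24 and -0.27 for columns a, b and c.

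Of the bins of the arm, 73 fell in the libraries labelled set-25 against N2 (limma, adjusted p under 0.05), with 10.6% of all bins falling, and 1 rose, with 19.8% of all bins rising. These calls rested on single libraries. Without column a, 178 bins fell (16.8% of all bins), while 1 bin fell without N2 column a (2.20% of all bins), and likewise 1 when either column b (1.70% of all bins) or column c (1.99%) was left out. With column a as the only library labelled set-25, the median difference of the arm's bins from N2 was -0.04. After median-centring, 124 fell, against 16.4% of all bins.

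**Figure D4:**
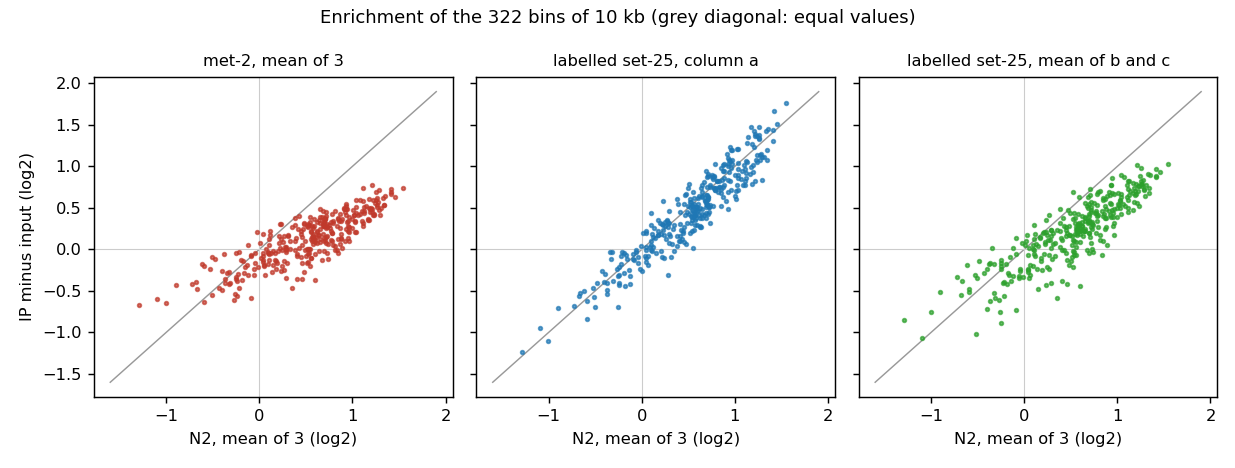
LEM-2 enrichment (log2) of the 322 bins of 10 kb in met-2 (left), in column a labelled set-25 (middle) and as the mean of the other two columns with that label, b and c (right), each against the N2 mean; the grey diagonal marks equal values. High bins of met-2 lie far below the diagonal, those of column a lie around it, and those of columns b and c lie between.

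Bin by bin, column a labelled set-25 lay within the range of the 3 N2 libraries in 130 of the 322 bins (40.4%, against 38.2% of all bins), below it in 138 (42.9%, against 22.9%) and above it in 54 (16.8%, against 38.9%). The share within the range was thus near that of the genome. Column b lay below the N2 range in 249 bins (77.3%, against 27.6% of all bins) and column c in 267 (82.9%, against 31.7%). The met-2 libraries lay below it in 259, 261 and 274 bins, against 33.4, 33.2 and 32.9% of all bins. By segments, column a lay below all N2 libraries in 15 of 32, column b in 27 and column c in 29. Shares of all segments are not given for these counts, so they do not set the arm apart from the genome. As a description across the 322 bins, column a correlated at 0.92 to 0.94 with the N2 libraries and at 0.75 to 0.77 with the met-2 libraries. Columns b and c correlated at 0.81 to 0.87 with N2, at 0.89 to 0.94 with met-2 and at 0.97 with each other.

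Over all 3 libraries labelled set-25, the segments lay below N2 in 13 of 32 (20.7% of all segments of the genome), above in 2 and overlapped in 17. The segment at 2.9 to 3.0 Mb shows the split, with 0.28 in column a and -0.41 and -0.45 in columns b and c, beside 0.17 to 0.47 in N2. At 1.6 to 1.7 Mb column a had 0.76, above the N2 values of 0.72, 0.60 and 0.54, and columns b and c had 0.26 and 0.21. Near the inner border, at 3.5 to 3.6 Mb, the columns had 0.12, 0.10 and 0.11, all above the N2 values of 0.05, 0.08 and 0.08. The difference there was 0.04 and did not pass (adjusted p = 0.504, limma on segments). The share of all segments that lay above N2 is not given. On their own, 197 bins were enriched in the libraries labelled set-25 (29.0% of all bins) and 42 depleted (43.7% of all bins). Of the 197, 195 were enriched in N2 too, where 73.6% of all bins of the arm were. This overlap was not computed over the genome. With column a alone, 6.21% of the arm's bins were depleted, against 41.3% of all bins.

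The bin from 3440001 had the largest fall that met the rule in these libraries. It had 0.42, 0.17 and 0.26 in N2 and -0.30, -0.44 and -0.38 in columns a to c (difference -0.66, adjusted p = 0.0118, limma). All 3 columns labelled set-25 were below 0 here, column a included, and met-2 had -0.26, -0.21 and -0.57. The bin from 2300001, a named fall of met-2 as well, had 0.32, 0.03 and -0.08 in columns a to c (difference from N2 -0.65, adjusted p = 0.00194). The other named falls were the bins from 3010001, 2460001, 2250001 and 1390001, at -0.57 to -0.54. The single rise was the bin from 3600001, at -0.38, -0.25 and -0.41 in N2 and -0.03, 0.06 and -0.02 in columns a to c (difference 0.35, adjusted p = 0.0279). Of these 7 bins, the one from 2300001 kept its call when N2 column a, or column b or c labelled set-25, was left out, and the other 6 lost theirs. The rise also lost its call without N2 column c, and after median-centring, where its difference was 0.20. None of the 7 passed with column a as the only library of that label.

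Met-2 and set-25 both shared the N2 libraries as their reference above, and their own difference was fitted directly. Met-2 lay below the libraries labelled set-25 by -0.17 in the arm mean and below column a by -0.33. With all libraries, limma called 0 bins higher (0.389% of all bins) and 0 lower (0.0299% of all bins), with a lowest adjusted p of 0.0523. At an unadjusted p under 0.05 there were 97 bins, 91 of them lower in met-2, and voom with limma on the recovered reads called 26. Shares of all bins are not given for these counts, so the counts do not set the arm apart from the genome. Against column a alone, limma called 93 bins lower in met-2 (5.75% of all bins) and 2 higher (8.63% of all bins). That fit takes the spread of the single library from the other groups. By segments, met-2 lay below all 3 columns in 14 of 32 (15.2% of all segments), above in 2, and overlapped in 16.

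**Figure D5:**
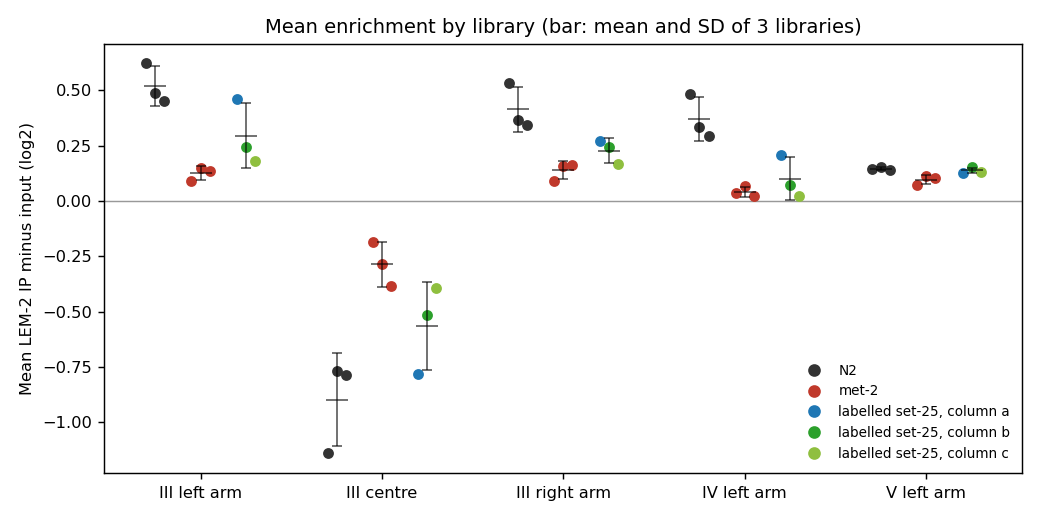
Mean LEM-2 enrichment (log2 IP minus mean strain input) of the left arm and centre of chromosome III, its right arm and the left arms of chromosomes IV and V; points are libraries, and bars are the mean and SD of 3. In the left arm of chromosome III the 3 met-2 points lie below all N2 points, and column a labelled set-25 lies within the N2 range. Column a lies below all N2 points in the other arms shown.

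Among the arms compared, the left arm of chromosome III had the highest wild-type mean and was not the highest in met-2. The right arm of chromosome III had 0.53, 0.37 and 0.34 in N2 and 0.09, 0.16 and 0.16 in met-2. The left arm exceeded it by 0.11 ± 0.02 in N2, and in met-2 the difference was -0.01 ± 0.01. The left arm of chromosome IV had 0.48, 0.33 and 0.29 in N2 and 0.04, 0.07 and 0.02 in met-2. In the left arm of chromosome V, N2 had 0.15, 0.15 and 0.14 and met-2 had 0.07, 0.11 and 0.11, so the difference between the strains there was -0.05, against -0.39 in the left arm of chromosome III. Column a labelled set-25 had 0.27 in the right arm of chromosome III, 0.21 in the left arm of IV and 0.13 in that of V. Each value was below all N2 libraries of its arm. The differences between arms were not tested.

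A few windows of the arm carried far more input reads than the rest. In 49 of the 6444 windows (0.760%, against 0.451% of all windows) the mean input was at least 3 times the median window of its library. They fell in 8 runs, and those with the most input were at 931001 to 932000, at 42.5 times the median, and at 1299501 to 1303000, at 39.9 times. The second of these had 0.53, 0.65 and 0.82 in N2 and 0.05, 0.14 and 0.26 in met-2, so the strains did not overlap. It touches the most enriched segment of the arm, which without its high-input windows had 1.43, 1.24 and 1.21 in N2.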

How the data were processed

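Per the labels, chromatin of early embryos was fixed, sonicated, and precipitated with an antibody to LEM-2, and IP and input libraries were sequenced. The deposited values are on the log2 scale, as the values themselves show: each is log2 of the reads of a 500-bp window, scaled to 35.2 M per library, plus 2. Whole reads were recovered for 100% of values within 0.01. How the authors aligned, counted and filtered reads is not given in the sources used here. The build is ce10 per the submitters' processing notes. The table's chromosome III ends at 13783681, which is not the end in ce10, so coordinates are those of the deposited table, and no sequence or gene was read from another build. Replicates of a group never agreed within sampling noise (chi-square per degree of freedom of at least 6.71 over bins).

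Windows were averaged over 10-kb bins and fitted in R 4.3.3 using limma 3.58.1 (moderated variances with a trend, 1 coefficient for each of 6 groups, 18 libraries, 12 residual degrees of freedom, Benjamini-Hochberg adjustment over all 10029 bins). Tables and plots were made in Python 3.11.15 with numpy 2.4.6, pandas 2.3.3 and matplotlib 3.10.9, and the fit was tested on simulated data. The means of the arm and its sides and the contrasts with other regions carry no p-value. The region, its comparison regions and the tests were chosen with earlier results of these data known. Named bins were, for N2, the 6 highest and 6 lowest past an adjusted p of 0.05 with all libraries on 1 side of 0. For each pair of strains they were up to 6 rises and 6 falls past it without overlap of the libraries, with at most 1 per 50 kb in a list. Columns carry letters in place of the replicate numbers of the labels. Same-letter libraries had correlated deviations from their group means of -0.53 to 0.83 over all pairs of groups. N2 and set-25 IP libraries had 0.61, 0.19 and 0.65 for letters a, b and c, but their inputs had 0.21, -0.36 and 0.64, so the letters were not taken as pairs. Alternatives changed the scaling, input, bin size, test, averaging, filter on windows under 10 mean input reads (2 windows of the arm) and libraries used. The alternative without high-input windows was added after the data were seen.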

Additional observations from a re-analysis of the deposited data

Results flagged for a closer look

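In 3 named bins every N2 library lay above its input and every library of a mutant below it. The difference between met-2 and N2 was -0.973 in the bin from 2920001 (adjusted p = 0.00453, limma) and -0.846 in the bin from 2300001 (adjusted p = 0.000146). The set-25 label minus N2 gave -0.657 in the bin from 3440001 (adjusted p = 0.0118). Depletion against input in met-2 itself did not pass in the bins from 2920001 (adjusted p = 0.107, limma) and 2300001 (adjusted p = 0.265). In the libraries labelled set-25 it passed in the bin from 3440001 (adjusted p = 0.00509).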

How the results depend on the processing

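The arm means of N2 and of met-2 minus N2 kept their direction in all settings tried, and every named bin of N2 and every named fall of met-2 kept its call; of the values of all named bins under the alternatives, 39 fell short of the threshold, 35 of them in set-25 against N2, and 0 changed sign. Median-centring gave arm means of 0.80 in N2 and 0.20 in met-2, a difference of -0.60, and changed the share of the arm's bins called to 4.04% lower in N2, 0.311% higher in met-2 against N2, 0% higher and 38.5% lower in set-25 against N2, and 0.311% lower in met-2 against set-25. The median over windows gave 0.16 for met-2. Without 2 of the columns labelled set-25, b and c, the arm mean of set-25 was 0.48, set-25 minus N2 was -0.042, met-2 minus set-25 was -0.35, the arm exceeded the centre by 1.27 in set-25, and that contrast was -0.86 for met-2 minus set-25. Calls in set-25 against N2 were then 0%, and 28.9% of bins were lower and 0.621% higher in met-2 against set-25. When N2 column a was left out as well, set-25 minus N2 turned to 0.011 in the arm mean and 0.019 in arm minus centre, and met-2 against set-25 had 45.7% lower and 1.55% higher. The cause was not tested. Shares of the arm's bins in this section compare settings with each other and are not set against all bins of the genome.

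Segments of 100 kb gave 6.25% lower in N2, 0% higher and 43.8% lower in set-25 against N2, and 6.25% lower in met-2 against set-25. Windows of 500 bp gave 0.264% higher and 20.8% lower in met-2 against N2 and 0% in both directions in set-25 against N2; more tests are adjusted for there, on fewer reads each. With voom on recovered reads, 0.621% were higher and 7.45% lower in met-2 against set-25. The replicate block by column letter gave 0.621% higher in set-25 against N2 and 0.311% lower in met-2 against set-25, and changed no other count by over 1.5 times. Leaving out 1 column letter of a strain at a time, calls ranged from 0.621 to 4.04% higher in met-2 against N2, from 0 to 1.24% higher and 0.311 to 55.3% lower in set-25 against N2, and from 0 to 0.311% higher and 0 to 1.86% lower in met-2 against set-25. For set-25 against N2, calls lower were 12.1% without N2 column b and 11.8% without met-2 column b. Depth limits single windows most, with a median of 43 reads in those of the arm in met-2 IP b.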
